A study of Mus musculus with 11 samples.

Results

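Treg cells receive costimulation through receptors of the TNF receptor superfamily and of the CD28 family. The 8 receptor genes examined were Tnfrsf1b, Tnfrsf4, Tnfrsf9, Tnfrsf18, Tnfrsf25 and Cd27, of the TNF receptor superfamily, and Cd28 and Icos, of the CD28 family. They were chosen by name, with earlier results of these data known, and all 8 were among the 52997 genes of the deposited count table and among the 12932 that passed the filter on low counts. The cells were clonotype+ Treg cells of the vTreg53 Tg+ genotype, which carry the rearranged TCR genes of a single Treg clone from visceral adipose tissue (VAT). They had been transferred into CD45.1+ C57BL/6 recipients, and 1000 cells per library were double-sorted from pooled spleen and lymph nodes (Spl/LN) or from epididymal VAT of male mice labelled as 15 weeks old. The fat1562_immunized mice were given the surrogate agonist peptide Fat1562 in complete adjuvant 6 weeks after the transfer, and again in incomplete adjuvant 1 week after that. The PBS_unimmunized mice are so named in the labels, whereas the methods of the study describe control mice given the adjuvants without peptide. The groups were SpLN_PBS_unimmunized (n = 3), SpLN_fat1562_immunized (n = 3), VAT_PBS_unimmunized (n = 2) and VAT_fat1562_immunized (n = 3). Every group carried the same TCR transgenes, so the cells represent one specificity and not the Treg population of a tissue. Smart-seq2, which amplifies polyadenylated mRNA from few cells and marks no strand, was used for all 11 libraries. Nothing in the labels says that the libraries came from separate mice, so p-values measure the spread between these libraries.

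As background, many TNF receptor superfamily members bind trimeric ligands, often on neighbouring cells, and recruit TRAF adaptor proteins, which activate NF-κB and promote survival and proliferation. CD28 and ICOS instead carry short cytoplasmic motifs that recruit PI3K, and CD28 is engaged together with the TCR. Treg cells are known for high surface levels of GITR (encoded by Tnfrsf18), OX40 (Tnfrsf4), TNFR2 (Tnfrsf1b) and ICOS, and CD137 (Tnfrsf9) is a classical marker of recent activation. DR3, encoded by Tnfrsf25, is the receptor of the cytokine TL1A and drives Treg expansion when it is engaged. CD27, the receptor of CD70, is carried by naive T cells and is lost late in T cell differentiation.

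The promoters of Tnfrsf9, Tnfrsf25 and Cd27 are shown because these genes had the widest ranges between groups. Each stretch runs from 250 bases before to 50 bases after a start site of the RefSeq annotation of GRCm38.p6, and 6 of the 8 genes had an entry, with 8 start sites in all. Capitals mark matches, on either strand, to the κB consensus of 10 bases, to the AP-1 motif TGANTCA and to the NFAT core TGGAAA.
Tnfrsf9, upstream start, chr4:150919905-150920204, plus strand: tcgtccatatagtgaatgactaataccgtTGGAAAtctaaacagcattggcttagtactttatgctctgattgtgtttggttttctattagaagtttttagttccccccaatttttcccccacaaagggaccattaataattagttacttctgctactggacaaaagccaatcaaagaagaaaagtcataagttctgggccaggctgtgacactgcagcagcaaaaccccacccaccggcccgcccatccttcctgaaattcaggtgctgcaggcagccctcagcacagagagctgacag
Tnfrsf9, downstream start, chr4:150927749-150928048, plus strand: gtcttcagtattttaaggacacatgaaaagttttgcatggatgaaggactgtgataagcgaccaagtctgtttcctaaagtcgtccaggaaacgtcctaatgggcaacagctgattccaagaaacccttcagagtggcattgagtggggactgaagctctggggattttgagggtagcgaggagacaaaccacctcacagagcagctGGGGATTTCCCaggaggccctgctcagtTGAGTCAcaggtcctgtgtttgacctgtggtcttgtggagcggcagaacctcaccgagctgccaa
Tnfrsf25, upstream start, chr4:152115684-152115983, plus strand: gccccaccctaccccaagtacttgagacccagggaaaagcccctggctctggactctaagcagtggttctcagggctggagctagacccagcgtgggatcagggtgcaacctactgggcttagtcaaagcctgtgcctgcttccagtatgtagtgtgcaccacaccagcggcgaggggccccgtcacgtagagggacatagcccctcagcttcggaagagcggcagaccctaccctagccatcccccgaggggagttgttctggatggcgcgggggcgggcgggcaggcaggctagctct
Tnfrsf25, downstream start, chr4:152116093-152116392, plus strand: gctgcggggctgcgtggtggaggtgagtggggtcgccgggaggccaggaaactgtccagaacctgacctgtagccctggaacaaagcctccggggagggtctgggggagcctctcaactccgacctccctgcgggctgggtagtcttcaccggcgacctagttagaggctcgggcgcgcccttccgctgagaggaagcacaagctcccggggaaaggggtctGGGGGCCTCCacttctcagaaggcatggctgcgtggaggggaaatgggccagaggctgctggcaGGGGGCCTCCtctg
Cd27, chr6:125236978-125237277, minus strand: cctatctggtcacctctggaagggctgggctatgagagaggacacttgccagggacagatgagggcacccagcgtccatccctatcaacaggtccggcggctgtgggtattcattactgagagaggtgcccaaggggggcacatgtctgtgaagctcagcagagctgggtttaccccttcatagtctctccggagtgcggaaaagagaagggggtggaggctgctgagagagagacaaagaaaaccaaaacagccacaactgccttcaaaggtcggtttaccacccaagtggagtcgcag

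The downstream start of Tnfrsf9 held a pair of overlapping κB matches, beginning 43 and 42 bases before the start site, and an AP-1 match beginning 15 bases before it. The upstream start of Tnfrsf9 held 1 NFAT core match, 221 bases before the start site. The downstream start of Tnfrsf25 held κB matches 28 bases before and 36 bases after the start site, and its upstream start held none of these motifs. The Cd27 stretch held none of them. Among the 32851 promoters of the same length in the table, 8.46% held a κB match, 7.81% an AP-1 match and 21.4% an NFAT core match. Of the 8 promoters of these receptors, 2 held a κB match, 1 an AP-1 match and 2 an NFAT core match, the second of them in the Tnfrsf4 promoter. No matches to different motifs overlapped. A match is a description and not a site, and the counts, which are per gene, do not tell which start was used.

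In GENCODE vM21 (GRCm38), 5 of the genes lie on chromosome 4: Tnfrsf1b (chr4:145213463-145246870, minus strand), Tnfrsf9 (chr4:150914562-150946102), Tnfrsf25 (chr4:152115934-152120119), Tnfrsf4 (chr4:156013843-156016612) and Tnfrsf18 (chr4:156026164-156028895), the last 4 on the plus strand. Tnfrsf4 and Tnfrsf18 are separated by 9551 bases. Cd27 lies on chromosome 6 (chr6:125232622-125237010, minus strand). Cd28 (chr1:60716800-60773359) and Icos (chr1:60977927-61000320) lie on the plus strand of chromosome 1, with Ctla4, the inhibitory member of their family, between them. Exons of Tnfrsf18 overlap the antisense gene Gm16008 over 414 bases, and 20.7% of the 38-base stretches of Tnfrsf18 occur in Gm16008. Reads from these cannot be told apart without strand, and Gm16008 stood at 76.4 to 100.2 normalized counts in Spl/LN libraries and 205 to 256 in VAT libraries. The part of Gm16008 in the Tnfrsf18 levels was not tested. Cd27 overlaps the microRNA gene Mir8113 over 129 bases, which was at 0 in all libraries, and 4.27% of the 38-base stretches of Cd27 occur in other annotated genes.

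Total counts per library ran from 4490242 to 6570057, and normalized counts are counts scaled to a common effective library size. Foxp3, the lineage factor of Treg cells, was at 6758 to 10273 normalized counts in the 11 libraries, and 6 of the 6 VAT Treg markers passed the test as higher in VAT_PBS_unimmunized than in SpLN_PBS_unimmunized cells. In fat1562_immunized mice 5 of the 6 were higher in VAT. Among all tested genes 9.09% and 8.26% passed as higher in VAT in PBS_unimmunized and fat1562_immunized mice. The VAT Treg markers, such as Il1rl1 and Gata3, also moved with fat1562. In VAT 4 of the 6 fell (median log2 difference -0.56), where 3.97% of all tested genes passed as lower. In Spl/LN 3 rose (median 0.42), where 2.58% of all passed as higher. The interaction term passed as lower for all 6 markers (median -1.16), where 2.02% of all passed as lower. Their summed level was 10378 to 15942 normalized counts in Spl/LN, 38065 and 38470 in VAT_PBS_unimmunized and 21663 to 28717 in VAT_fat1562_immunized libraries, and their part in the receptor differences was not tested. Markers of other cell types had summed levels of 0 to 10.1 for the 5 adipocyte markers, 35.0 to 177 for the 8 myeloid markers and 48.9 to 226 for the 6 dendritic cell markers. They ran from 0 to 32.9 for the 3 NK cell markers, 66.4 to 194 for the 2 CD8 T cell markers and 1.91 to 13.7 for the 4 mast cell and eosinophil markers. The 6 stromal and endothelial markers summed to 495 to 591 in Spl/LN, 262 to 311 in VAT_PBS_unimmunized and 448 to 618 in VAT_fat1562_immunized libraries. Of these sums, Pecam1 held 235 to 590. None of these markers was at 0 in every library. Of 2 stromal and endothelial and 4 myeloid markers tested, 1 each was lower in VAT in PBS_unimmunized mice, and 1 each rose with fat1562 in VAT. Among all tested genes 7.17% and 4.32% passed in these directions. The interaction term passed as higher for 1 stromal and endothelial marker, where 1.70% of all did. Of 3 dendritic cell markers tested, 1 was higher in VAT in PBS_unimmunized and 2 in fat1562_immunized mice (9.09% and 8.26% of all). The 1 NK cell marker tested was lower in VAT in fat1562_immunized mice (6.73% of all) and rose with fat1562 in Spl/LN (2.58% of all). The part of these markers in the receptor differences was not tested. The 7 B cell markers summed to 6129 to 28771, nearly all from Ighm (6028 to 28595), while Ms4a1 and Pax5 stayed at 0 to 6.52. Of the 4 B cell markers tested, 1 was lower in VAT in PBS_unimmunized and 2 in fat1562_immunized mice (7.17% and 6.73% of all). With fat1562 in VAT, 1 of the 4 fell, where 3.97% of all tested genes passed as lower. Of the other B cell markers, Cd79b was at 110 to 204 in Spl/LN and 47.3 to 130 in VAT libraries, and it was lower in VAT in fat1562_immunized mice (log2 -1.18, adjusted p = 0.00589). Cd22, at 85.6 to 144 in Spl/LN and 1.09 to 14.3 in VAT libraries, was lower in VAT in PBS_unimmunized (log2 -4.40, adjusted p = 2.67e-05) and fat1562_immunized mice (log2 -3.43, adjusted p = 1.78e-05), and the part of these genes in the receptor differences was not tested. Both extremes of Ighm were in the VAT_PBS_unimmunized group, whose replicate 2 was at 28595. Some receptor calls ended without that library, and some without replicate 1 of the group, which had the lowest Ighm. Either removal leaves 1 library in the group, so a part of Ighm and the smaller group cannot be told apart. In bulk samples, fewer cells that express a gene and less of its RNA per cell cannot be told apart.

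Per kilobase of exon, Tnfrsf4 and Tnfrsf18 were the highest of the 8 receptors in each of the 4 groups, and Cd28 was the lowest in 3 of the 4. In SpLN_PBS_unimmunized cells, the order was Tnfrsf4 at 3666 ± 450 normalized counts per kilobase (mean ± SD, n = 3), Tnfrsf18 at 2564 ± 200.4, Icos at 2045 ± 176, Tnfrsf1b at 1658 ± 153, Cd27 at 1360 ± 112, Tnfrsf9 at 816 ± 108, Tnfrsf25 at 565 ± 94.7 and Cd28 at 239 ± 28.7. No neighbours in that order had overlapping libraries. In VAT_fat1562_immunized cells, Tnfrsf9 came next after Tnfrsf18, at 4019 ± 1133 normalized counts per kilobase (n = 3), and its libraries overlapped those of Tnfrsf18 at 4851 ± 573. Tnfrsf25 was the last of the 8 in that group, at 275 ± 31.2, below Cd28 at 396 ± 34.0. In VAT_PBS_unimmunized cells, Cd27 stood at 612 ± 78.5 (n = 2), below Tnfrsf25 at 785 ± 30.3. Other neighbours with overlapping libraries were Tnfrsf1b and Icos in VAT_fat1562_immunized cells and Tnfrsf9 and Cd27 in SpLN_fat1562_immunized cells. With the longest transcript as the gene length, the order of the middle ranks changed: Cd27 moved from rank 5 to rank 4 in SpLN_PBS_unimmunized cells and from rank 6 to rank 4 in SpLN_fat1562_immunized cells, and the first 2 ranks stayed.

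**Figure D1:**
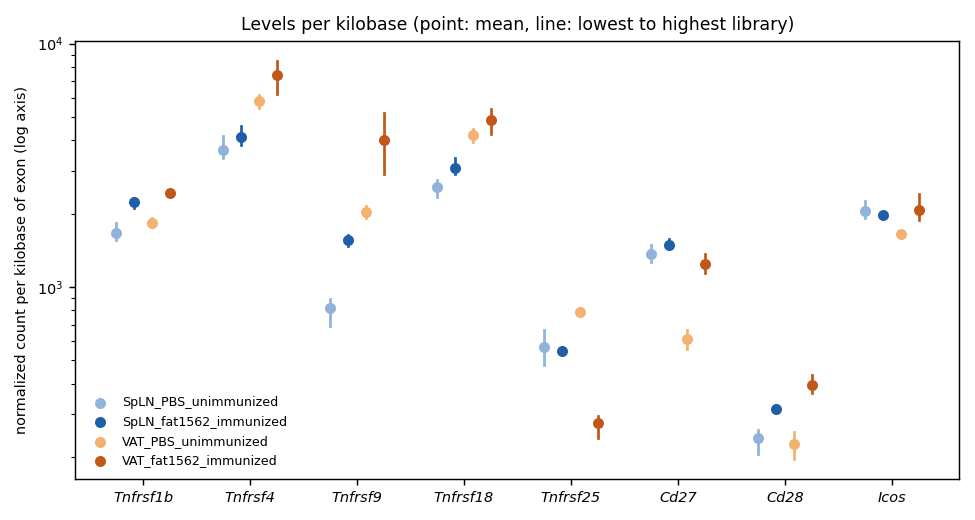
Normalized count per kilobase of exon (logarithmic axis) of the 8 receptor genes in the 4 groups, with points at the group means and lines from the lowest to the highest library. Tnfrsf4 and Tnfrsf18 lie at the top in every group, Tnfrsf9 spans 816 to 4019 between group means and Tnfrsf25 is lowest in VAT_fat1562_immunized cells.

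The first question was how the receptors differed between VAT and Spl/LN. In PBS_unimmunized mice, Tnfrsf4, Tnfrsf9, Tnfrsf18 and Tnfrsf25 were higher in VAT, by log2 values of 0.47 to 1.32, and Cd27 and Icos were lower. These were 6 of the 8 genes, 4 higher and 2 lower, where 16.3% of all tested genes passed the test, 9.09% as higher and 7.17% as lower. In fat1562_immunized mice, 5 of the 8 passed. Tnfrsf4, Tnfrsf9, Tnfrsf18 and Cd28 were higher in VAT and Tnfrsf25 was lower, where 15.0% of all tested genes passed, 8.26% as higher and 6.73% as lower. The test was edgeR's quasi-likelihood test across all genes, with Benjamini-Hochberg adjustment and a threshold of 0.05. How many of all tested genes had groups without overlapping libraries was not counted, so a lack of overlap below is only a description. VAT was digested with collagenase, and no such step is given for Spl/LN, so the tissue and the preparation cannot be told apart. The 10 immediate early and heat shock genes moved with tissue: their summed level was 5063 to 7757 normalized counts in Spl/LN, 80919 and 95493 in VAT_PBS_unimmunized and 33690 to 41657 in VAT_fat1562_immunized libraries. The heat shock genes did not follow this sum within VAT. Hspa1a had means of 65.1 ± 35.2 in VAT_PBS_unimmunized and 290 ± 323 in VAT_fat1562_immunized cells, and Hspa1b of 7.01 ± 0.69 and 34.2 ± 41.6. The part of the 10 genes in the receptor differences was not tested.

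**Figure D2:**
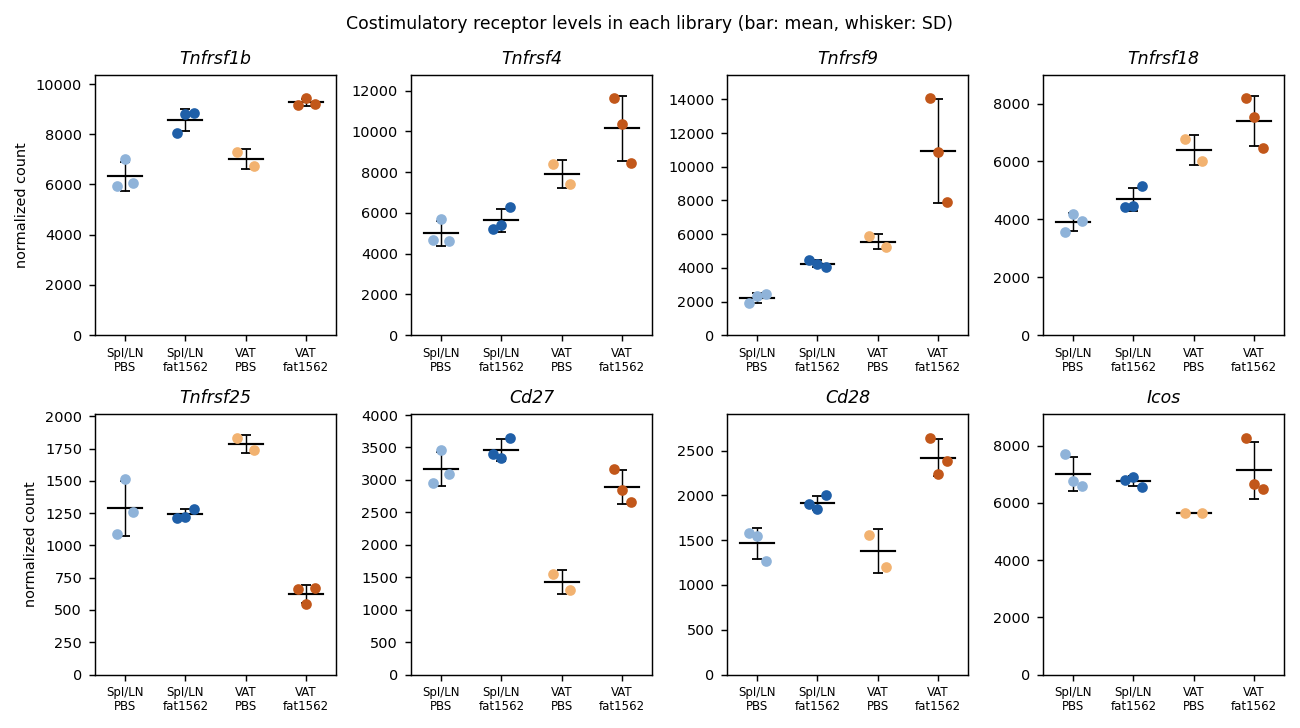
Normalized counts of each receptor gene in each of the 11 libraries, by group, with the mean as a bar and the SD as a whisker. Tnfrsf9 is lowest in SpLN_PBS_unimmunized and highest in VAT_fat1562_immunized cells, Tnfrsf25 is highest in VAT_PBS_unimmunized and lowest in VAT_fat1562_immunized cells, and Cd27 is lowest in VAT_PBS_unimmunized cells.

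Tnfrsf4, which encodes OX40, stood at 4677, 5713 and 4623 normalized counts in the SpLN_PBS_unimmunized libraries and at 5222, 5423 and 6283 in the SpLN_fat1562_immunized libraries. In VAT it stood at 8396 and 7405 in PBS_unimmunized and at 11622, 10349 and 8444 in fat1562_immunized libraries. Every VAT library was above every Spl/LN library. The log2 difference between VAT and Spl/LN was 0.66 (SE 0.12, adjusted p = 0.00109) in PBS_unimmunized and 0.84 (SE 0.11, adjusted p = 4.22e-05) in fat1562_immunized mice.

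Tnfrsf18, which lies near it on chromosome 4, encodes GITR. Its SpLN_PBS_unimmunized libraries were at 3579, 4183 and 3961 normalized counts and its SpLN_fat1562_immunized libraries at 4440, 4476 and 5147. The VAT_PBS_unimmunized libraries were at 6768 and 6023 and the VAT_fat1562_immunized libraries at 8184, 7540 and 6456. As with Tnfrsf4, the VAT and Spl/LN libraries did not overlap. The log2 difference between the tissues was 0.71 (SE 0.10, adjusted p = 0.000109) in PBS_unimmunized mice and 0.66 (SE 0.095, adjusted p = 0.000103) in fat1562_immunized mice. With quantile normalization and limma in place of edgeR, the PBS_unimmunized differences fell to 0.38 for Tnfrsf4 (adjusted p = 0.145) and 0.38 for Tnfrsf18 (adjusted p = 0.0875), and neither passed.

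Tnfrsf9, which encodes CD137, had the largest tissue difference among the receptors. Its normalized counts were 1884, 2352 and 2425 in SpLN_PBS_unimmunized and 4451, 4230 and 4027 in SpLN_fat1562_immunized libraries. They were 5872 and 5240 in VAT_PBS_unimmunized and 14068, 10850 and 7902 in VAT_fat1562_immunized libraries. The 4 groups formed 4 separate ranges, with the widest spread in VAT_fat1562_immunized cells (10940 ± 3084, mean ± SD, n = 3). VAT exceeded Spl/LN by log2 1.32 in PBS_unimmunized mice (SE 0.16, adjusted p = 1.44e-05) and by 2.58-fold in fat1562_immunized mice (log2 1.37, SE 0.15, adjusted p = 4.28e-06).

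Cd27 went the other way in PBS_unimmunized mice. It stood at 2946, 3455 and 3096 normalized counts in SpLN_PBS_unimmunized and at 3393, 3337 and 3653 in SpLN_fat1562_immunized libraries. The VAT_PBS_unimmunized libraries, at 1554 and 1296, were the lowest of all, and the VAT_fat1562_immunized libraries stood at 3168, 2845 and 2657. In PBS_unimmunized mice, Cd27 in VAT was at 0.450 of the Spl/LN level (log2 -1.15, SE 0.11, adjusted p = 7.76e-07). In fat1562_immunized mice the log2 difference was -0.26 (SE 0.094, adjusted p = 0.0743), which did not pass. The libraries did not overlap, and it passed without VAT_fat1562_immunized replicate 1 (log2 -0.33, adjusted p = 0.04999), with DESeq2's Wald test (adjusted p = 0.0486), with limma's quality weights (adjusted p = 0.0227) and with only the groups compared in the fit (adjusted p = 0.0409).

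Tnfrsf25, which encodes DR3, was higher in VAT in PBS_unimmunized and lower in VAT in fat1562_immunized mice. Its normalized counts were 1086, 1515 and 1260 in SpLN_PBS_unimmunized, 1216, 1220 and 1286 in SpLN_fat1562_immunized, 1836 and 1738 in VAT_PBS_unimmunized and 664, 544 and 670 in VAT_fat1562_immunized libraries. The VAT_PBS_unimmunized libraries were thus above, and the VAT_fat1562_immunized libraries below, all 6 Spl/LN libraries. In PBS_unimmunized mice Tnfrsf25 was 1.39-fold higher in VAT (log2 0.47, SE 0.13, adjusted p = 0.0166), and in fat1562_immunized mice it was at 0.505 of the Spl/LN level (log2 -0.99, SE 0.12, adjusted p = 1.43e-05). The PBS_unimmunized difference did not pass without SpLN_PBS_unimmunized replicate 1 (log2 0.37, adjusted p = 0.0612), VAT_PBS_unimmunized replicate 1 (log2 0.43, adjusted p = 0.127) or VAT_PBS_unimmunized replicate 2 (log2 0.51, adjusted p = 0.0630), or with quantile normalization and limma (log2 0.34, adjusted p = 0.215). The fat1562_immunized difference passed with each library left out.

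Icos, whose product binds ICOSL, stood at 7704, 6756 and 6578 normalized counts in SpLN_PBS_unimmunized, 6811, 6918 and 6556 in SpLN_fat1562_immunized, 5657 and 5637 in VAT_PBS_unimmunized and 8281, 6642 and 6484 in VAT_fat1562_immunized libraries. The pair of VAT_PBS_unimmunized libraries lay below all others. The log2 difference in PBS_unimmunized mice was -0.31 (SE 0.10, adjusted p = 0.0440), a call that 10 of 20 alternatives ended. It ended without any 1 of 8 libraries, namely replicates 1 and 2 of SpLN_PBS_unimmunized, replicates 1, 2 and 3 of SpLN_fat1562_immunized, replicates 1 and 2 of VAT_PBS_unimmunized and replicate 2 of VAT_fat1562_immunized (log2 -0.34 to -0.24, adjusted p = 0.0502 to 0.159). It also ended with median-of-ratios size factors (adjusted p = 0.0536) and with only the groups compared in the fit (adjusted p = 0.0556). In fat1562_immunized mice the Icos difference was 0.08 (95% interval -0.11 to 0.27), and its direction turned with quantile normalization (-0.09).

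Cd28, the receptor for CD80 and CD86, stood at 1582, 1551 and 1263 normalized counts in SpLN_PBS_unimmunized, 1901, 1851 and 2002 in SpLN_fat1562_immunized, 1555 and 1202 in VAT_PBS_unimmunized and 2647, 2235 and 2388 in VAT_fat1562_immunized libraries. The PBS_unimmunized libraries of both tissues overlapped, with a log2 difference of -0.09 (95% interval -0.35 to 0.18). In fat1562_immunized mice every VAT library was above every Spl/LN library, with a log2 difference of 0.34 (SE 0.11, adjusted p = 0.0473). That call ended with quantile normalization (0.26, adjusted p = 0.284) and without any 1 of 7 libraries, the 6 of the groups compared and SpLN_PBS_unimmunized replicate 2 (log2 0.27 to 0.39, adjusted p = 0.0544 to 0.193).

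Tnfrsf1b, which encodes TNFR2, showed no tissue difference that passed. Its normalized counts were 5950, 7003 and 6042 in SpLN_PBS_unimmunized and 8040, 8815 and 8845 in SpLN_fat1562_immunized libraries. In VAT they were 7304 and 6737 in PBS_unimmunized and 9149, 9434 and 9222 in fat1562_immunized libraries. The log2 difference between VAT and Spl/LN was 0.15 (95% interval -0.03 to 0.33) in PBS_unimmunized and 0.11 (95% interval -0.04 to 0.27) in fat1562_immunized mice, and both turned negative with quantile normalization (-0.19 and -0.03).

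The second question was how the receptors changed with fat1562 immunization in each tissue. In VAT, Tnfrsf1b, Tnfrsf9, Cd27, Cd28 and Icos rose and Tnfrsf25 fell, which is 6 of the 8 genes, 5 higher and 1 lower. Among all tested genes 8.30% passed in that comparison, 4.32% as higher and 3.97% as lower. In Spl/LN, 2 of the 8 rose, Tnfrsf1b and Tnfrsf9, and 0 fell, where 3.98% of all tested genes passed, 2.58% as higher and 1.40% as lower. The 4 comparisons share libraries, so a group that stands high or low enters 2 of them.

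**Figure D3:**
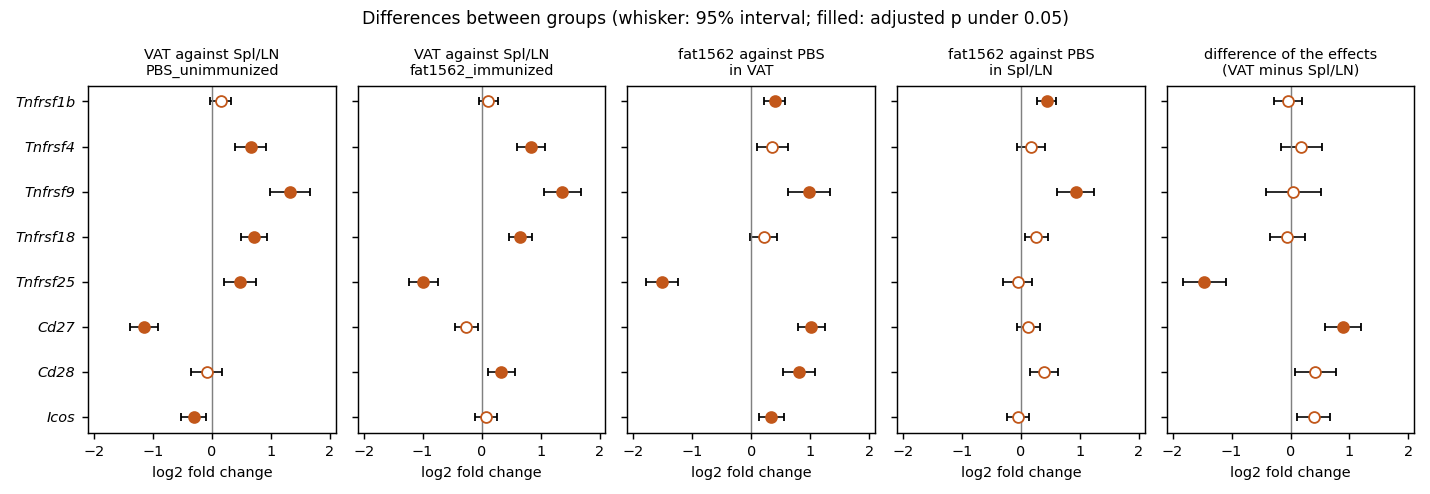
Log2 fold changes of the 8 receptor genes in the 5 comparisons, with 95% intervals as whiskers and filled points where the adjusted p was under 0.05. Tnfrsf9 lies right of 0 in the first 4 panels, whereas Tnfrsf25 and Cd27 have filled points in the last panel, which shows the difference between the effects of fat1562 in VAT and Spl/LN.

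Tnfrsf9 rose 1.97-fold in VAT (log2 0.98, SE 0.17, adjusted p = 0.00121) and 1.91-fold in Spl/LN (log2 0.93, SE 0.15, adjusted p = 0.00128). Tnfrsf1b rose 1.32-fold in VAT (log2 0.40, SE 0.085, adjusted p = 0.00617) and 1.35-fold in Spl/LN (log2 0.44, SE 0.075, adjusted p = 0.00251). For both genes the fat1562_immunized libraries lay above all PBS_unimmunized libraries of the same tissue. The VAT call of Tnfrsf1b ended without VAT_PBS_unimmunized replicate 2 (log2 0.35, adjusted p = 0.0966) and with quantile normalization (log2 0.46, adjusted p = 0.0686). With quantile normalization neither gene passed in Spl/LN, at log2 0.30 for Tnfrsf1b (adjusted p = 0.223) and 0.89 for Tnfrsf9 (adjusted p = 0.0727).

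Cd28 rose 1.76-fold in VAT (log2 0.81, SE 0.13, adjusted p = 0.00048). In Spl/LN its log2 difference was 0.39 (SE 0.11, adjusted p = 0.0588), which did not pass, and the 3 libraries of each group did not overlap. It passed with DESeq2 (adjusted p = 0.0214), with no filter on low counts (adjusted p = 0.0103), with a coefficient of variation under 0.7 as a filter (adjusted p = 0.0428) and without VAT_PBS_unimmunized replicate 1 (log2 0.39, adjusted p = 0.0440) or replicate 2 (log2 0.39, adjusted p = 0.0425). It also passed with the replicate number as a block (adjusted p = 0.0430). Icos rose 1.26-fold in VAT (log2 0.34, SE 0.10, adjusted p = 0.0490), a call that 12 of 20 alternatives ended. It ended without any 1 of 8 libraries, namely replicate 2 of SpLN_PBS_unimmunized, replicates 1, 2 and 3 of SpLN_fat1562_immunized, replicates 1 and 2 of VAT_PBS_unimmunized and replicates 1 and 2 of VAT_fat1562_immunized (log2 0.21 to 0.39, adjusted p = 0.0571 to 0.199). The other alternatives were a coefficient of variation under 0.7 as a filter (adjusted p = 0.0530), median-of-ratios size factors (0.0635), quantile normalization (0.223) and only the groups compared in the fit (0.0643). In Spl/LN the Icos difference was -0.05 (95% interval -0.24 to 0.14).

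Tnfrsf4 and Tnfrsf18 did not pass in either tissue. For Tnfrsf4 the log2 difference was 0.36 in VAT (95% interval 0.09 to 0.63, adjusted p = 0.0955) and 0.17 in Spl/LN (95% interval -0.06 to 0.41). In VAT it passed without VAT_fat1562_immunized replicate 3 (log2 0.47, adjusted p = 0.0254), with no filter on low counts (adjusted p = 0.00456) and with limma's quality weights (adjusted p = 0.0378). For Tnfrsf18 the log2 difference was 0.21 in VAT (95% interval -0.02 to 0.43) and 0.26 in Spl/LN (95% interval 0.06 to 0.46, adjusted p = 0.139).

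Cd27 rose 2.03-fold with fat1562 in VAT (log2 1.02, SE 0.11, adjusted p = 1.17e-05), and its log2 difference in Spl/LN was 0.13 (95% interval -0.07 to 0.33). Tnfrsf25 fell to 0.351 of its PBS_unimmunized level in VAT (log2 -1.51, SE 0.13, adjusted p = 1.29e-06). In Spl/LN its log2 difference was -0.05 (95% interval -0.30 to 0.19). The effects of fat1562 in VAT and in Spl/LN were compared by the interaction term. It passed for 2 of the 8 receptors, 1 in each direction, where 3.72% of all tested genes passed, 1.70% as higher and 2.02% as lower. With quantile normalization and limma, 45 of all tested genes were called higher and 35 lower, against 220 and 261 with edgeR. The effect in VAT exceeded that in Spl/LN by 0.89 on the log2 scale for Cd27 (SE 0.14, adjusted p = 0.00173), and that of Tnfrsf25 was lower by a log2 value of -1.46 (SE 0.17, adjusted p = 0.000141). Cd27 did not pass with quantile normalization (log2 0.97, adjusted p = 0.0519). For Tnfrsf9 the interaction was 0.05 (95% interval -0.42 to 0.51) and for Tnfrsf1b -0.04 (95% interval -0.27 to 0.20). For Cd28 it was 0.42 (95% interval 0.07 to 0.77, adjusted p = 0.187) and for Icos 0.39 (95% interval 0.10 to 0.68, adjusted p = 0.132), so a different effect in the 2 tissues was not shown for either. For Tnfrsf4 it was 0.19 (95% interval -0.17 to 0.54) and for Tnfrsf18 -0.05 (95% interval -0.35 to 0.25).

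Cell division markers and antigen receptor response genes were measured in the same libraries. Of the 12 cell division markers, 11 passed as higher with fat1562 in VAT, with a median log2 difference of 0.72, where 4.32% of all tested genes passed as higher. In Spl/LN edgeR called 0 of the 12, with 3 at an unadjusted p under 0.05, and DESeq2 called 1 as lower. Their summed level was 8054 to 10625 normalized counts in SpLN_PBS_unimmunized and 8142 to 8542 in SpLN_fat1562_immunized libraries. The summed level in VAT went from 6096 and 8005 in PBS_unimmunized to 10674 to 12449 in fat1562_immunized libraries. The 12 antigen receptor response genes, such as Nr4a1, had summed levels of 8738 to 9697 and 10595 to 11656 in the Spl/LN groups, 38645 and 45406 in VAT_PBS_unimmunized and 22051 to 26481 in VAT_fat1562_immunized libraries. Of these 12, 7 were higher and 2 lower in VAT in PBS_unimmunized mice, where 16.3% of all tested genes passed. In fat1562_immunized mice, where 15.0% of all passed, 7 were higher and 3 lower. With fat1562, 1 rose and 4 fell in VAT, and 3 rose and 1 fell in Spl/LN, with median log2 differences of -0.36 and 0.31. Among all tested genes 8.30% and 3.98% passed. The part of the cell division and antigen receptor response genes in the receptor differences was not tested.

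**Figure D4:**
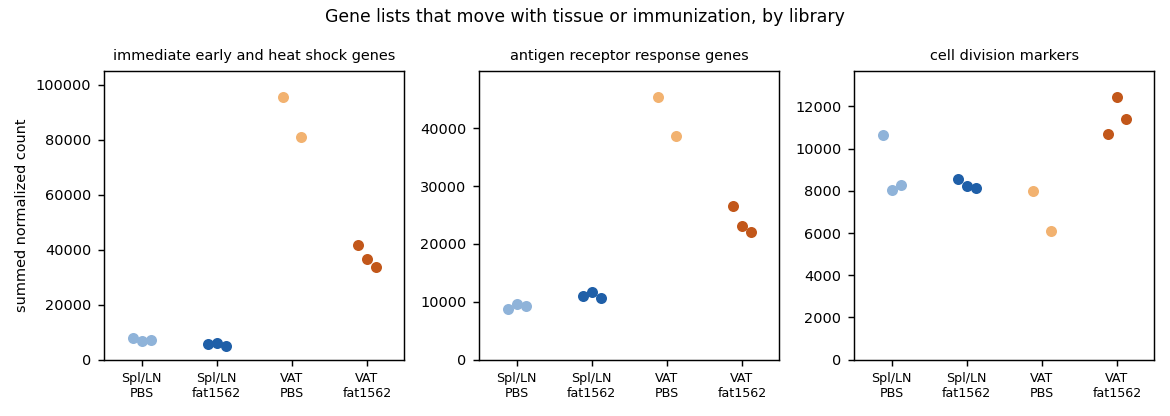
Summed normalized counts of 10 immediate early and heat shock genes, 12 antigen receptor response genes and 12 cell division markers in each library, by group. The sums of the first 2 lists are highest in VAT_PBS_unimmunized libraries, and that of the cell division markers is highest in VAT_fat1562_immunized libraries.

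Ligands of these receptors were measured in the same sorted cells. Of the 10 ligand genes, 7 passed the filter on low counts, and Tnfsf4, Tnfsf15 and Tnfsf18, the ligands of OX40, DR3 and GITR, stayed between 0 and 9.78 normalized counts in every library. Tnf, whose membrane form binds TNFR2, was at 292 to 399 normalized counts in SpLN_PBS_unimmunized and 555 to 950 in VAT_PBS_unimmunized libraries. It fell with fat1562 in VAT (log2 -1.45, SE 0.23, adjusted p = 0.000512) and in Spl/LN (log2 -0.93, SE 0.21, adjusted p = 0.0206). Lta, which encodes lymphotoxin alpha, was at 149 to 175 in SpLN_PBS_unimmunized libraries and also fell in Spl/LN (log2 -1.85, SE 0.41, adjusted p = 0.0157). Between tissues, 2 of the 7 were higher in VAT and 1 lower in PBS_unimmunized mice, where 16.3% of all tested genes passed. The call of Tnf, 1 of the 2, ended without VAT_PBS_unimmunized replicate 1 (log2 0.69), which leaves 1 library in that group. In fat1562_immunized mice, where 15.0% of all passed, 1 was higher and 1 lower. The lower one, Lta, did not pass with quantile normalization (adjusted p = 0.0763) or without SpLN_fat1562_immunized replicate 1 (0.0713) or 3 (0.0857). Nor did it pass without VAT_fat1562_immunized replicate 1 (0.0772) or 2 (0.0803). Tnf passed there as higher with no filter on low counts (adjusted p = 0.00725), DESeq2 (0.0404) or only the groups compared (0.0247). It also passed without SpLN_fat1562_immunized replicate 1 (0.0298). With fat1562, 1 of the 7 passed in VAT and 2 in Spl/LN, all of them as lower, with median log2 differences of -0.57 and -0.77. Among all tested genes 8.30% passed in VAT, 3.97% as lower, and 3.98% in Spl/LN, 1.40% as lower. Neither fall in Spl/LN passed with quantile normalization (adjusted p = 0.116 for Tnf and 0.206 for Lta) or without SpLN_fat1562_immunized replicate 2 (0.0862 and 0.103). That of Tnf also ended without SpLN_PBS_unimmunized replicate 2 (0.0698) or SpLN_fat1562_immunized replicate 3 (0.0969). The ligand of CD137, Tnfsf9, was at 49.3 to 185 normalized counts, and it was higher in VAT in fat1562_immunized mice (log2 0.95, SE 0.31, adjusted p = 0.0499). That call ended with median-of-ratios size factors (adjusted p = 0.0508), quantile normalization (0.149) and the replicate block (0.0535), and without any 1 of 5 libraries, the 3 of SpLN_fat1562_immunized and replicates 1 and 2 of VAT_fat1562_immunized (log2 0.68 to 1.01, adjusted p = 0.0988 to 0.248).

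The other members of both families were compared in the same fit. Of 22 other TNF receptor superfamily genes, 14 passed the filter. Between VAT and Spl/LN, 3 were higher and 2 lower in PBS_unimmunized mice, and 3 were higher and 2 lower in fat1562_immunized mice. Among all tested genes 16.3% and 15.0% passed. Tnfrsf8, which encodes CD30, was at 488 ± 155 normalized counts (n = 3) in SpLN_PBS_unimmunized and 844 ± 36.1 (n = 2) in VAT_PBS_unimmunized cells (log2 0.79, adjusted p = 0.0146), and differed by log2 1.77 between the tissues in fat1562_immunized mice (adjusted p = 4.65e-06). The PBS_unimmunized call of Tnfrsf8 ended with quantile normalization (adjusted p = 0.0940) and without SpLN_PBS_unimmunized replicate 1 (0.0528) or 2 (0.0522) or VAT_PBS_unimmunized replicate 1 (0.0954) or 2 (0.0561). Tnfrsf10b, the death receptor for TRAIL, was higher in VAT by log2 2.12 (adjusted p = 3.87e-05) and 1.73 (adjusted p = 0.000203). With fat1562, 0 of the 14 rose and 1 fell in VAT, which was Tnfrsf26 (log2 -0.95, adjusted p = 0.0019), a call that ended without VAT_PBS_unimmunized replicate 2 (log2 -0.70, adjusted p = 0.0701). In Spl/LN edgeR called 0 of the 14, with 3 at an unadjusted p under 0.05, and DESeq2 called 1 as lower. With no filter on low counts edgeR called Tnfrsf8 lower in Spl/LN (log2 -0.51, adjusted p = 0.00688) and higher in VAT (0.46, 0.0412). Among all tested genes 8.30% passed with fat1562 in VAT and 3.98% in Spl/LN. The median log2 differences of the 14 were -0.34 and 0.03 between the tissues in PBS_unimmunized and fat1562_immunized mice, 0.16 with fat1562 in VAT and -0.27 in Spl/LN, against -0.03, -0.01, 0.01 and -6.95e-06 over all tested genes.

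Of the 3 other CD28 family genes, the inhibitory receptor genes Ctla4 and Pdcd1 were higher in VAT and Btla was lower, in PBS_unimmunized and in fat1562_immunized mice. Among all tested genes 16.3% and 15.0% passed in these comparisons. With fat1562, 1 of the 3 passed in each tissue, where 4.32% of all tested genes passed as higher in VAT and 2.58% in Spl/LN. Pdcd1, which encodes a receptor induced by antigen stimulation, had means of 1105, 2478, 3912 and 6437 normalized counts in SpLN_PBS_unimmunized, SpLN_fat1562_immunized, VAT_PBS_unimmunized and VAT_fat1562_immunized cells. It rose with fat1562 in VAT (log2 0.72, SE 0.15, adjusted p = 0.00524) and in Spl/LN (log2 1.17, SE 0.13, adjusted p = 7.25e-05). The VAT call of Pdcd1 ended with quantile normalization (log2 0.76, adjusted p = 0.0635) and without VAT_PBS_unimmunized replicate 2 (log2 0.54, adjusted p = 0.117).

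Downstream of the TNF receptors, all 27 listed TRAF and NF-κB pathway genes were tested. In PBS_unimmunized mice 9 were higher and 1 lower in VAT, with a median log2 difference of 0.17 against -0.03 over all tested genes. In fat1562_immunized mice 8 were higher and 2 lower, with a median of 0.07. Among all tested genes 16.3% passed between the tissues in PBS_unimmunized and 15.0% in fat1562_immunized mice. Tnfaip3, which encodes the NF-κB inhibitor A20, was 9.63- and 6.07-fold higher in VAT in PBS_unimmunized and fat1562_immunized mice, and Nfkbia, which encodes the inhibitor IκBα, 4.59- and 3.01-fold. Traf1, an adaptor induced by NF-κB, was higher by log2 values of 1.63 and 1.01, and Rel, an NF-κB subunit, by 1.67 and 2.16. Traf5, an adaptor of OX40 and CD27 signaling, was lower by log2 values of -1.37 and -1.18. With fat1562 in VAT, 2 rose and 3 fell: Rel (log2 0.61) and Traf5 (0.67) rose, and Nfkbia (-0.77), Tnfaip3 (-0.69) and Map3k14 (-1.15), which encodes the kinase of the noncanonical pathway, fell. Among all tested genes 8.30% passed with fat1562 in VAT and 3.98% in Spl/LN. With quantile normalization 0 of the 27 rose and 2 fell in VAT. Without VAT_PBS_unimmunized replicate 2, Rel (adjusted p = 0.129), Traf5 (0.198) and Map3k14 (0.130) did not pass, and without replicate 1 of that group Tnfaip3 (0.0524) and Traf5 (0.120) did not. Traf5 also did not pass without VAT_fat1562_immunized replicate 2 (0.134) or 3 (0.0998), with limma's quality weights (0.0526), with only the groups compared in the fit (0.0545) or with the replicate block (0.0569). In Spl/LN, edgeR called 0 of the 27, with 5 at an unadjusted p under 0.05, and DESeq2 called 2 as higher. With other filters edgeR called Traf1 higher: none on low counts (log2 0.36, adjusted p = 0.00541), a mean above 50 (0.0494) or a coefficient of variation under 0.7 (0.0398). Traf1 also passed without SpLN_PBS_unimmunized replicate 2 (0.0485), SpLN_fat1562_immunized replicate 1 (0.0496) or VAT_fat1562_immunized replicate 3 (0.0303). The summed level of the immediate early and heat shock genes was highest in VAT_PBS_unimmunized libraries, and the part of those genes in these differences was not tested.

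**Figure D5:**
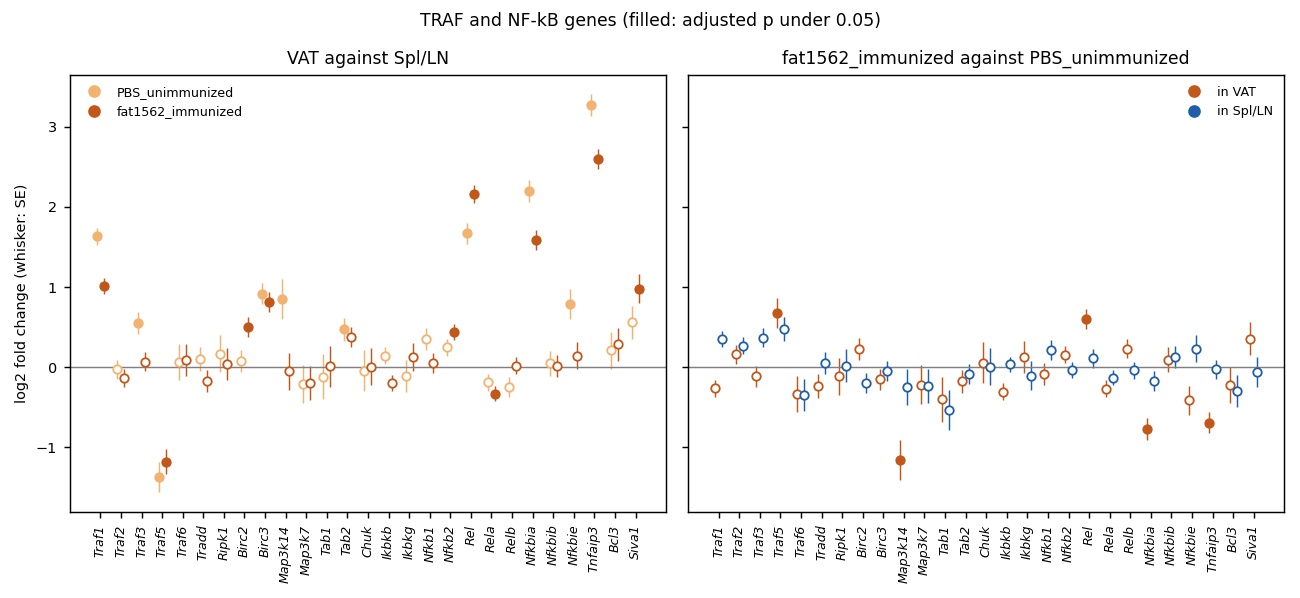
Log2 fold changes with SE of the 27 TRAF and NF-κB pathway genes between tissues (left) and with fat1562 (right), filled where the adjusted p was under 0.05. Tnfaip3, Nfkbia, Rel and Traf1 lie above 0 and Traf5 below 0 between the tissues, and none is filled for Spl/LN on the right.

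Downstream of CD28 and ICOS, all 23 listed PI3K and NF-κB signaling genes were tested. In PBS_unimmunized mice 2 were higher and 2 lower in VAT, close to the 16.3% of all tested genes. In fat1562_immunized mice 1 was higher and 4 were lower, where 15.0% of all tested genes passed. The median log2 differences were 0.00404 and -0.13, against -0.0291 and -0.00529 over all tested genes. Prkcq, which encodes the protein kinase C that couples CD28 to NF-κB, was lower in VAT by log2 values of -1.06 (adjusted p = 9.84e-06) and -1.67 (adjusted p = 1.47e-08). Malt1, its paracaspase partner downstream, was higher by 0.74 and 0.72, and neither call held with quantile normalization (adjusted p = 0.105 and 0.0891). The PBS_unimmunized call of Malt1 also ended without VAT_PBS_unimmunized replicate 2 (log2 0.45, adjusted p = 0.199). With fat1562 in VAT, 1 rose, which was Lck (log2 0.46), and 3 fell, among them Prkcq (-0.80) and Pik3cd (-0.62). With quantile normalization 0 rose and 1 fell. The Lck call ended without VAT_PBS_unimmunized replicate 2 (adjusted p = 0.104), and that of Pik3cd without VAT_PBS_unimmunized replicate 1 (0.136) or VAT_fat1562_immunized replicate 2 (0.0563). In Spl/LN edgeR called 0 of the 23, with 4 at an unadjusted p under 0.05, DESeq2 called 2 as higher and limma with quality weights 1. With no filter on low counts edgeR called Lck (adjusted p = 0.0209) and Malt1 (0.0406) higher and Pik3cd (0.0467) lower. Lck also passed without SpLN_fat1562_immunized replicate 1 (0.0391), and Malt1 without SpLN_PBS_unimmunized replicate 1 (0.0479). Among all tested genes 8.30% passed with fat1562 in VAT and 3.98% in Spl/LN.

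For the 4 receptors whose group means spanned at least 1 on the log2 scale, the 3 genes with the most similar pattern over the 11 libraries were taken from 8967 genes, by the root mean square difference of centred log2 values. The gene most like Tnfrsf4 was Tnfrsf18 (0.0911), followed by Stx11 (0.11) and Inf2 (0.128). Most like Tnfrsf9 were Pdcd1 (0.213), Runx2 (0.22) and the integrin gene Itga3 (0.23). Most like Tnfrsf25 were the cytokine receptor gene Il9r (0.185), the complement regulator gene Cd55 (0.193) and Cdc42ep3 (0.24). Il9r had means of 475 ± 51.1 normalized counts (n = 2) in VAT_PBS_unimmunized and 203 ± 22.3 (n = 3) in VAT_fat1562_immunized cells, against 431 ± 49.5 and 384 ± 19.1 in Spl/LN. Most like Cd27 were Ndufa4 (0.135), Gsap (0.182) and Ppm1f (0.185). These are likenesses of levels across libraries that share tissue and treatment.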

How the data were processed

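Per the submitters' processing notes, the authors aligned the reads with STAR 2.5.4 to mm10 and counted them with featureCounts, and the methods of the study also name Cuffquant. The annotation and the strand setting are not given in the sources used here. The deposited values are raw counts per gene, and no molecular identifiers are named. The totals of 4490242 to 6570057 per library limit precision for low genes. Genes with a mean above 10 counts, scaled by library total, in 1 or more of the 4 groups were kept (12932 of 52997). TMM factors and edgeR 4.0.16's quasi-likelihood test (R 4.3.3) were used on all 11 libraries with 1 coefficient per group, Benjamini-Hochberg adjustment over all tested genes and a threshold of 0.05. Normalized counts are counts scaled to a common effective library size, and fold changes use a prior count of 0.125. The common biological coefficient of variation was 19.1%. Libraries of a group differed by more than sampling noise, with a chi-square per degree of freedom of 5.27 to 11.0. The scripts were tested on simulated data. Alternatives included DESeq2 1.42.0 and limma 3.58.1. The receptors and gene lists were chosen with earlier results of these data known. The genes named are the 8 receptors, genes of the lists described, and the 3 genes most like each receptor whose group means spanned at least 1 on the log2 scale. Within a list, the genes named were chosen after their values were seen. Coordinates come from GENCODE vM21 and promoters from RefSeq.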

Additional observations from a re-analysis of the deposited data

Results flagged for a closer look

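For Tnfrsf25 and Cd27 the effect of fat1562 immunization differed between VAT and Spl/LN, as tested by edgeR's interaction term with Benjamini-Hochberg adjustment. The log2 effect in VAT minus that in Spl/LN was -1.46 for Tnfrsf25 (adjusted p = 0.000141) and ranged from -1.60 to -1.36 when each library was left out in turn. For Cd27 it was 0.89 (adjusted p = 0.00173), with a range of 0.77 to 1.03.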

How the results depend on the processing

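Of the 40 receptor results, 21 were called, of which 11 kept their call under every alternative run (9 other settings, 8 of them for the interaction, and 11 removals of 1 library), and 16 of the 19 others never gained one. With quantile normalization and limma, the number of receptors called was 3 in place of 6 (VAT against Spl/LN, PBS_unimmunized), 0 in place of 2 (fat1562 in Spl/LN, where 151 genes of all were called) and 1 in place of 2 (interaction). With 1 library left out, the numbers ran from 4 to 6 and 4 to 5 for the tissue differences, 4 to 7 and 2 to 3 for fat1562 in VAT and Spl/LN, and 2 to 2 for the interaction. A lone VAT_PBS_unimmunized library is then assumed to vary like the other groups. Directions that turned were all of results not called: with quantile normalization, Tnfrsf1b (-0.19 and -0.025) and Icos (-0.094) between tissues and Tnfrsf1b (0.17) and Tnfrsf18 (0.11) in the interaction; with quality weights, Tnfrsf9 in the interaction (-0.018). With 1 library left out, the ranges were -0.29 to 0.081 (Cd28, tissue, PBS_unimmunized), -0.043 to 0.14 (Icos, tissue, fat1562_immunized), -0.16 to 0.084 (Tnfrsf25) and -0.094 to 0.024 (Icos) in Spl/LN, and -0.12 to 0.030 (Tnfrsf1b), -0.18 to 0.23 (Tnfrsf9) and -0.13 to 0.038 (Tnfrsf18) in the interaction. The cause was not tested. Over all genes, the 2102 calls between tissues in PBS_unimmunized mice were 1259 and 1367 without VAT_PBS_unimmunized replicates 1 and 2, and the 1938 in fat1562_immunized mice were 1289 without VAT_fat1562_immunized replicate 2. The 1073 with fat1562 in VAT were 530 with quantile normalization, 545 and 508 without VAT_PBS_unimmunized replicates 1 and 2, and 623 without VAT_fat1562_immunized replicate 2. The 515 in Spl/LN were 793 with DESeq2 and also with no filter, and 334, 190 and 320 without SpLN_fat1562_immunized replicates 1, 2 and 3. The 481 of the interaction were 80 with quantile normalization, 789 with DESeq2, 310 without SpLN_fat1562_immunized replicate 2, 240 and 287 without VAT_PBS_unimmunized replicates 1 and 2, and 276 without VAT_fat1562_immunized replicate 2. Deviations of same-numbered libraries of different groups had r from -0.0395 to 0.0555 (n = 15 pairs), and other-numbered ones from -0.0576 to 0.0395 (n = 30). In the 5 same-numbered pairs that join both tissues within a treatment, r was 0.0299 to 0.0555, against -0.0576 to 0.0277 in other-numbered pairs of that kind. The r that libraries of 1 mouse would have is not known, so these values do not decide whether the numbers are pairs. Nothing in the labels says whether they share a mouse. The replicate block gave each number an effect shared by all groups, so it also joined libraries of different treatments. A pairing of the tissues within a treatment was not fitted. With the replicate block, 6, 5, 6, 3 and 2 receptors were called, the added one being Cd28 in Spl/LN (log2 0.39, adjusted p = 0.0430 with edgeR), and 1804, 1861, 990, 515 and 435 genes of all.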
